A study of Mus musculus with 8 samples.

Results

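The comparison followed CD8+ T cells of wild-type (WT) mice between 24 h and 48 h of activation in culture. It compared 4 of the 8 libraries of the study, 2 at each time, and the spread was estimated over all 8. The cells were isolated as naive CD8+ T cells, the resting precursors of cytotoxic lymphocytes. They were stimulated with antibodies against CD3 (2 µg per ml), which trigger the T cell receptor (TCR), and against CD28 (1 µg per ml), which give costimulation, supplemented with the growth factor IL2 at 10 ng per ml. The WT mice were littermates of mice with floxed Nr4a1 and Nr4a2 and a Cd8Cre transgene. Those mice gave the other 4 libraries, labelled dKO. The labels do not say whether the WT littermates carried Cre or floxed alleles, give no age, and do not say whether the libraries of a group came from separate mice or cultures. The p-values below therefore measure only the spread between these libraries, which may be technical. RNA was taken in bulk from whole cultures, so fewer cells of a type and less RNA per cell cannot be told apart.

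A naive T cell whose receptor is engaged together with CD28 leaves its resting state, grows, copies its DNA and divides. A first wave of genes follows the receptor within hours, among them the EGR and NR4A transcription factors, chemokines and feedback inhibitors. IL2 and related cytokines then sustain division and the build-up of cytotoxic proteins such as granzymes.

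Several properties of the libraries bear on every result. Total counts were 5824552 to 7018314 in 3 of the WT libraries and 21686236 in WT 48 h replicate 2. A count of 0 allows up to 3 counts, or 0.138 to 0.515 counts per 1e6 counts (CPM), which covers counting error only. Across genes, log2 CPM correlated at r = 0.985 between the 24 h replicates and at 0.965 between the 48 h replicates. The median absolute log2 difference between replicates was 0.195 at 24 h and 0.364 at 48 h. Ribosomal protein genes took 12.4% and 11.7% of the counts at 24 h, 11% in WT 48 h replicate 1 and 7.04% in replicate 2. The difference between the 48 h replicates went with transcript length: replicate 2 over replicate 1 had a median log2 ratio of -0.30 in the shortest of 3 equal classes of 10183 genes with a length and 0.33 in the longest. At 24 h the medians of the 3 length classes lay between -0.002 and 0.051. Against the mean of the 24 h libraries both 48 h libraries differed by length, in opposite directions: replicate 1 had medians of 0.067 in the shortest class and -0.141 in the longest, and replicate 2 of -0.256 and 0.21. The shortest class held 309 of the rises described below and 215 of the falls (median log2 fold change -0.097), and the longest 297 and 76 (0.069). What part transcript length has in single results was not tested.

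A set of genes also moved as a block. In the 6 libraries other than WT at 24 h, 338 genes kept a nearly constant ratio (coefficient of variation up to 0.15) to the sum of Csrp3, a muscle gene, and of Ropn1, Odf4 and Tnp2, which are sperm genes. They are called genes in fixed proportion here, and were chosen with earlier results of these data known. They took 15% and 10.0% of the counts at 24 h but 26.2% and 27.3% at 48 h, so both 48 h libraries lay above both 24 h libraries. Their median log2 fold change was 1.45, with quartiles of 1.37 and 1.51, and 334 of the 338 were called higher. The choice used both 48 h WT libraries and favoured genes with little spread between replicates. The number called is therefore not an independent result. Other muscle and sperm genes were divided. Of 6 tested markers of muscle and testis 5 were called higher, against 7.87% of all tested genes. They are the 4 named above and Myh1, a myosin of skeletal muscle, and all 5 are in the set. Myh1 was at 26.5 and 16.9 CPM at 24 h and at 60.3 and 66.5 CPM at 48 h. Prm1, Prm2 and Ckm had 0 to 2 counts in each WT library, and Acta1, actin of skeletal muscle, stood at 91.1 and 94.1 CPM at 24 h and at 48.6 and 71.2 CPM at 48 h. The chemokine gene Ccl5 and the E2F repressor gene E2f7 belong to the set. What makes these genes move together was not tested.

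**Figure D1:**
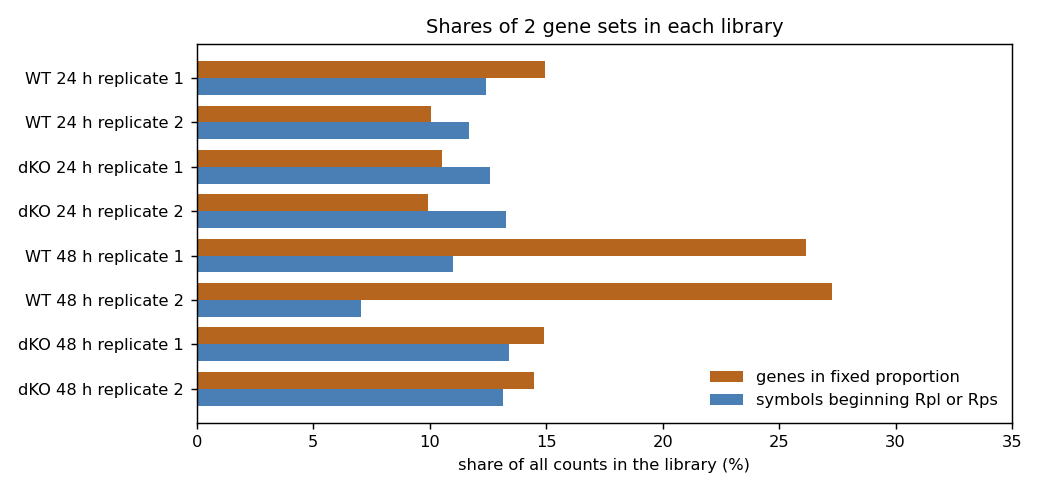
Share of all counts (%, horizontal axis) taken in each of the 8 libraries by the 338 genes in fixed proportion and by genes with symbols beginning Rpl or Rps; each bar is 1 library. The genes in fixed proportion took 26.2% and 27.3% in the 48 h WT libraries against 10.0% and 15% in those at 24 h, and WT 48 h replicate 2 had the lowest ribosomal share, 7.04%.

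The comparison of 48 h with 24 h asked which RNAs changed between the first and the second day of activation. Levels are CPM scaled by TMM factors, and a gene was called at an adjusted p below 0.05 in edgeR. The fit held all 8 libraries, so each p-value and SE also rests on the spread between the libraries labelled dKO. Of 12742 tested genes, 1003 were higher at 48 h (7.87%) and 446 lower (3.5%). These shares are the background for the counts of each list below. A change of at least 1 on the log2 scale was seen in 783 of the rises and 176 of the falls. Outside the genes in fixed proportion 669 rose, and 602 rose and 331 fell when that set was left out before scaling. Both 48 h libraries lay above both 24 h libraries in 2614 genes with a mean of 20 or more counts (20.5% of those tested), of which 975 were called. Both lay below in 2785 (21.9%), of which 426 were called. At the edge of that rule, Pgpep1l was inside with a mean of 20.5 counts and Pf4, the platelet factor gene, outside with 19.2. Another 28 rises and 20 falls had a mean under 20 counts.

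The number of calls rested on single libraries. Leaving out 1 library left its group with 1, so the spread then came from the other groups alone. The WT 48 h replicates differed most from each other (median absolute log2 difference 0.364). More calls without 1 of them therefore do not show a change that this library hid. Without WT 24 h replicate 1 or 2, 650 and 494 genes rose and 137 and 101 fell. Without WT 48 h replicate 1 or 2, 2275 and 1825 rose and 1939 and 1152 fell, and without any 1 dKO library 250 to 273 fell. Of the 1449 calls, 464 rises and 72 falls stayed called without each of the 8 libraries in turn, and these are called held below. Of the 464 held rises, 306 are genes in fixed proportion, which were chosen for a steady ratio over libraries, and 158 are not. The 4 WT libraries fitted alone gave 27 rises and 4 falls. With scaling by library size alone the median of all tested genes moved from 0.00 to -0.36, and the calls turned from 69.2% higher to 21.6% higher (727 higher and 2641 lower). Directions are therefore given relative to the bulk of the tested genes.

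**Figure D2:**
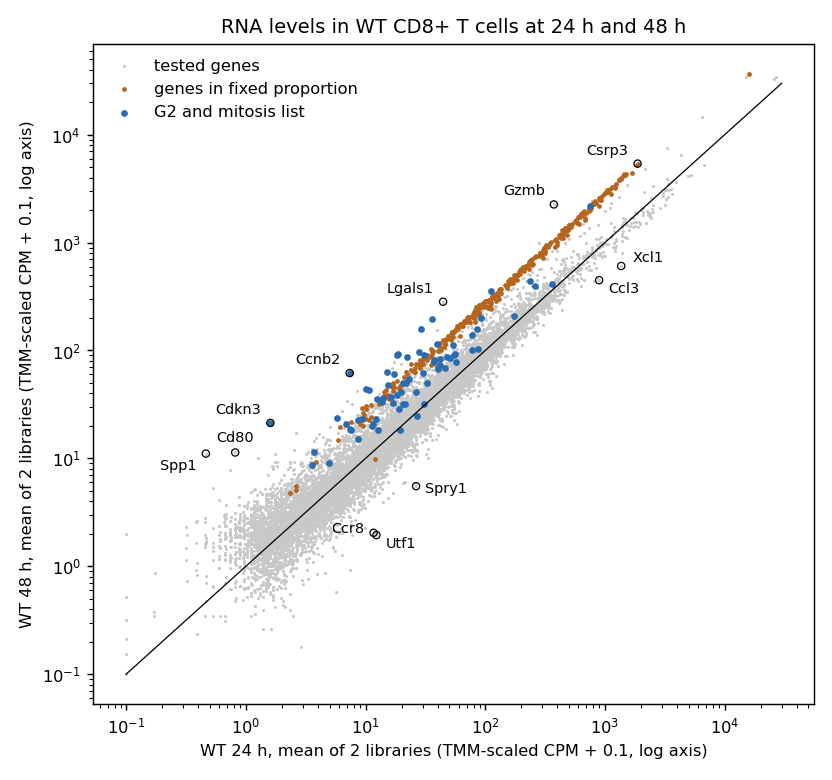
Mean level of each tested gene in WT at 24 h (horizontal) and at 48 h (vertical), in TMM-scaled CPM plus 0.1 on log axes, with the line of equal levels; each point is 1 gene. The genes in fixed proportion form a band parallel to and above the line, members of the G2 and mitosis list lie mostly above it, and Spp1, Cd80, Cdkn3, Gzmb and Lgals1 are among the named genes farthest above.

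Genes of G2 and mitosis formed the group with the most rises. Of 71 tested, 59 rose and 0 fell, against 7.87% of all tested genes that rose, and the median log2 fold change was 1.08 against 0.00 over all tested genes. In 66 of the 71 both 48 h libraries lay above both 24 h libraries, which held for 22.7% of all tested genes. Ccnb2 (chr9:70407692-70421547, GRCm38), which encodes cyclin B2, the partner of the mitotic kinase CDK1, stood at 6.03 and 8.5 CPM at 24 h and at 71.9 and 51.5 CPM at 48 h. This is a log2 fold change of 3.08 (SE 0.251, adjusted p = 0.000672). Cdc20, an activator of the anaphase-promoting complex, which marks mitotic proteins for destruction, went from 17.4 and 18.9 CPM to 93.9 and 87.7 CPM. The lowest 48 h library lay far above both 24 h libraries in both genes.

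Other steps of division moved in the same direction. Ube2c, the ubiquitin carrier of the same complex, rose from 31.6 and 40.5 CPM to 218 and 172 CPM (log2 2.43, SE 0.187). Cdkn3, a phosphatase that acts on CDK1 and CDK2, rose from 1.68 and 1.32 CPM to 27.6 and 14.8 CPM (log2 3.76, SE 0.364). Cenpa, the histone H3 variant of centromeres, rose by 2.45 (SE 0.224) and Prc1, which bundles microtubules between dividing cells, by 1.79 (SE 0.147). Pif1, a DNA helicase outside the list, rose by 2.72 (SE 0.24). For each of these genes the 48 h libraries lay above the 24 h libraries and the call held without any 1 library. Of the 59 calls 30 held. One of them, the kinesin Kif18a, belongs to the genes in fixed proportion and was named after its values were seen. There were 34 and 33 rises without WT 24 h replicate 1 or 2, 39 with library size alone (median 0.72) and 12 in the 4 WT libraries alone.

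Not every mitotic gene rose to the same degree. The 12 members that were not called had log2 fold changes from -0.13 (Cenpm, a centromere protein) to 0.92 (Troap). Among them Pttg1, which encodes securin, was at -0.12 and the condensin subunit Smc4 at 0.19. These 4 and the next 2 were named after their values were seen. Mki67, the proliferation antigen Ki-67, stood at 112 and 111 CPM at 24 h and at 165 and 552 CPM at 48 h. Top2a, a topoisomerase that untangles chromosomes, stood at 237 and 236 CPM and then at 344 and 531 CPM. Both 48 h libraries were higher in both genes, but they differed from each other more than the 24 h libraries did.

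Many genes of mitosis carry CHR elements and CCAAT boxes upstream of their start, which are bound by the DREAM complex and by NF-Y. The 250 bases before the start of Ccnb2, Cdc20 and Ube2c, which rose strongly and hold both motifs, are shown beside those of Mcm2, a replication gene that fell and holds both too. Ccnb1 and Plk1, mitotic genes that rose by 2.31 and 2.07, hold CCAAT boxes but no CHR element of the forms searched in that window. The replication genes Cdt1 and Ung hold neither a CCAAT box nor a searched form of the CHR element. The sequences are from RefSeq (GRCm38.p6), 5′ to 3′ on the strand of the gene. Capitals mark the CHR element, which was searched as TTTGAA and as TTCGAA and in no further form, and the CCAAT box, both on either strand. The reverse of the first is TTCAAA, and that of the box is written as ATTGG. The Ccnb2 stretch is chr9:70421555-70421804 on the minus strand, that of Cdc20 is chr4:118437344-118437593 on the minus strand, that of Ube2c is chr2:164769679-164769928 on the plus strand, and that of Mcm2 is chr6:88898781-88899030 on the minus strand.
Ccnb2: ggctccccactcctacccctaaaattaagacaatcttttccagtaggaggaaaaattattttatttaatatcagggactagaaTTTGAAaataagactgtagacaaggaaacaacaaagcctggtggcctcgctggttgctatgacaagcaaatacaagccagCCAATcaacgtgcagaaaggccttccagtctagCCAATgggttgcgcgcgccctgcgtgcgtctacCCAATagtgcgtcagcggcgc
Cdc20: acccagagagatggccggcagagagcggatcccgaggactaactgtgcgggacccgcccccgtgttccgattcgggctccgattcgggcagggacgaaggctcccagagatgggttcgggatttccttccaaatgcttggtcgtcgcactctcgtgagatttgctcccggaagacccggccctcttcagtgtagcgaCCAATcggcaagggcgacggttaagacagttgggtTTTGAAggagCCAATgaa
Ube2c: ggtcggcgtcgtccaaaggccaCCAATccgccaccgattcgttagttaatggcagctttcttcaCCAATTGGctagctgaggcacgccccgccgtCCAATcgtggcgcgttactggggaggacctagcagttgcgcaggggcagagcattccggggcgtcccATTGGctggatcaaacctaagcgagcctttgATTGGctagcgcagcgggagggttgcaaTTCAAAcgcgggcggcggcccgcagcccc
Mcm2: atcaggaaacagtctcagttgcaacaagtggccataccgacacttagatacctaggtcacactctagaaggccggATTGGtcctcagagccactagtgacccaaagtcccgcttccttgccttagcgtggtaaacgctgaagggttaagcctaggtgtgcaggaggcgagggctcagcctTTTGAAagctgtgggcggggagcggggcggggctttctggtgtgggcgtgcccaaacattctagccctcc

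The Cdc20 stretch holds a CHR element that begins 18 bases before the start and CCAAT boxes at 53 and 8 bases. The Ube2c stretch holds a CHR element at 29 bases and 6 CCAAT boxes, 1 of which overlaps another on the opposite strand. In Ccnb2 the 3 CCAAT boxes begin 87, 54 and 21 bases before the start and the CHR element 167 bases before it. Mcm2 also holds 1 of each, at 70 and 175 bases. Of the 61 list members found in the table, 24 hold a CHR element (39.3%), against 12.8% of 9502 promoters of tested genes and 17.4% of all 27025. A CCAAT box is in 70.5%, against 37.3% and 34.5%, and both are in 34.4%, against 5.21% and 6.21%. Of 40 promoters of S phase genes, 15% hold a CHR element and 65.0% a CCAAT box. E2F motifs were searched on both strands as TTGGCGC, which on its reverse strand can overlap a CCAAT box, and in further forms as TTCCCGC and finally as TTCGCGC. They are in 37.5% of the S phase promoters, 14.8% of the mitotic ones, 12.2% of those of tested genes and 6.79% of all. A match is a description of the letters and not of a bound site, and the CHR shares count only the forms searched.

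Genes of DNA replication did not move with those of mitosis. Of 50 tested S phase genes 1 rose and 4 fell (background 7.87% and 3.5%), with a median of -0.22. Cdt1, which licenses replication origins, rose from 129 and 113 CPM to 235 and 264 CPM (log2 1.04, SE 0.151, adjusted p = 0.00258). Ung, a uracil glycosylase of DNA repair, fell from 221 and 188 CPM to 119 and 107 CPM (log2 -0.86, SE 0.164, adjusted p = 0.00773). The other falls were Chaf1b, a histone chaperone subunit, Mcm2, a subunit of the replicative helicase, and Pold2, a DNA polymerase subunit named after its values were seen. Their log2 fold changes were -0.77, -0.51 and -0.52. In all 5 genes the 2 times did not overlap, but only the rise of Cdt1 held. There were 20 falls and 7 rises without WT 48 h replicate 1, 13 and 4 without replicate 2, 1 fall without either WT 24 h replicate, 2 without each dKO library and 24 with library size alone.

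The genes that govern entry into S phase split. Of 22 G1 cyclins, kinases and E2F genes 5 rose and 1 fell (background 7.87% and 3.5%). Their median was 0.29 (-0.07 with library size alone). Ccne1, cyclin E1, rose from 262 and 190 CPM to 490 and 524 CPM (log2 1.17, SE 0.181, adjusted p = 0.00273). Cdkn1a, which encodes the CDK inhibitor p21, rose from 24.8 and 25.1 CPM to 47.1 and 44.3 CPM (log2 0.87, SE 0.138, adjusted p = 0.00289). The repressor E2f7 rose by 1.47 as a gene in fixed proportion, and its relative E2f8 and the inhibitor Cdkn2d, named after their values were seen, by 0.85 and 0.93. The activator E2f1 fell from 38.6 and 43.7 CPM to 24.7 and 22.8 CPM (log2 -0.80, adjusted p = 0.00842), a call lost without WT 24 h replicate 2 (adjusted p = 0.092). The rises of Ccne1, Cdkn1a and E2f7 held. There were 3 rises without each other library but the 48 h WT replicates, and 11 without WT 48 h replicate 1.

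The list for p53, the damage-activated tumour suppressor, also holds GADD45 stress genes. Its 23 tested members had a median of 0.17 (-0.19 with library size alone). Of these, 7 rose and 0 fell (background 7.87% and 3.5%). Beside Cdkn1a they were the stress genes Gadd45b (1.07) and Gadd45g (1.01), the cyclin G1 gene Ccng1 (0.74) and Sesn2 (0.92), a sestrin. Perp, a membrane protein of p53 responses, and Pmaip1, a killer protein of the BCL2 family, were named after their values were seen and rose by 1.29 and 0.74. Only the rise of Cdkn1a held, 3 and 2 rose without WT 24 h replicate 1 or 2, and 4 with library size alone. Of 61 replication-dependent histone genes 3 rose and 1 fell (background 7.87% and 3.5%), with a median of 0.06 (-0.29 with library size alone). Hist1h3a fell from 16.4 and 13.9 CPM to 5.8 and 6.15 CPM (log2 -1.33, SE 0.205) and held. The linker histone genes Hist1h1b and Hist1h1e and the core histone gene Hist1h2af rose by 1.43, 0.98 and 1.36. None of these 3 rises was called without either WT 24 h replicate, and 16 histone genes rose without WT 48 h replicate 2. Most histone RNAs lack a poly(A) tail, so their counts also depend on the way libraries were made, which the labels do not give.

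The cytotoxic genes did not rise as a group, but granzyme B did. Gzmb (chr14:56258838-56262260), the granzyme that starts cell death in target cells, stood at 362 and 387 CPM at 24 h and at 2227 and 2293 CPM at 48 h. That is a log2 fold change of 2.59 (SE 0.19, adjusted p = 0.000523), and it held at 2.54 to 2.63 without each library in turn. Serpina3g, an inhibitor of lysosomal proteases, rose from 1.68 and 1.76 CPM to 8.01 and 8.88 CPM (log2 2.30, SE 0.323). These were the 2 called genes of 16 tested effector genes, whose median was -0.03. Over all tested genes 11.4% were called. There were 5 rises and 1 fall without WT 48 h replicate 2, and 3 and 3 without replicate 1. Perforin, Prf1, which opens the path for granzymes, was at 24.96 and 29.6 CPM and then at 19.6 and 24.7 CPM (log2 -0.28, adjusted p = 0.405). Interferon gamma, Ifng, was at 477 and 433 CPM and then at 488 and 347 CPM, with overlapping times (log2 -0.13, adjusted p = 0.751). Serpine2, a protease inhibitor outside the list, rose from 2.1 and 2.93 CPM to 19.6 and 14.8 CPM (log2 2.75, SE 0.271).

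Among 17 tested transcription factors of effector differentiation, 2 rose and 1 fell (background 7.87% and 3.5%). Their median was 0.01 (-0.35 with library size alone). Irf1, an interferon-induced activator, fell from 87.9 and 87.5 CPM to 47.2 and 50.1 CPM (log2 -0.85, SE 0.132, adjusted p = 0.00273) and held. Gata3, the factor of type 2 responses, stood at 311 and 181 CPM at 24 h and at 694 and 379 CPM at 48 h. The replicates of both times differed widely, and its call (log2 1.12, adjusted p = 0.0439) was lost without WT 24 h replicate 2 (adjusted p = 0.3) and without each dKO library. Nfil3, a factor of NK and memory cells, had a log2 fold change of 1.04 and lost its call without WT 24 h replicate 1 (adjusted p = 0.2) and without each dKO library. Leaving out WT 48 h replicate 1 gave 6 rises and 4 falls, and without each dKO library 0 rose.

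Genes of the first response to the TCR mostly stood lower on the second day. Of 34 tested, 2 rose and 10 fell (background 7.87% and 3.5%), with a median of -0.38. Egr2, a transcription factor that restrains activation, fell from 60.4 and 50.6 CPM to 29.7 and 23.1 CPM (log2 -1.09, SE 0.17, adjusted p = 0.00275). Fosl1, a partner in the AP-1 complex, fell from 19.4 and 15.7 CPM to 7.67 and 7.57 CPM (log2 -1.20, SE 0.191). Fos, Fosb and Jun, AP-1 subunits named after their values were seen, fell by 1.27, 1.48 and 0.78 on the log2 scale. Of the 10 falls 3 held, those of Egr2, Fosl1 and Spry1. There were 3 without either WT 24 h replicate, 5 without each dKO library, 15 without either WT 48 h replicate and 20 with library size alone.

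Other members of the first response went their own way. Batf3, an AP-1 factor tied to memory formation, rose from 0.70 and 1.61 CPM to 11.9 and 7.83 CPM (log2 3.04, SE 0.468, adjusted p = 0.00268). The other rise was Tnfrsf4, named after its values were seen, which encodes the costimulatory receptor OX40 (26.5 and 26.5 CPM, then 50.1 and 41.6 CPM). The activation antigen Cd69 was at 66.5 and 68.2 CPM and then at 60.9 and 50.1 CPM, and was not called (log2 -0.29, adjusted p = 0.289). Il2ra, the high-affinity IL2 receptor chain, was at 397 and 400 CPM and then at 459 and 554 CPM (log2 0.35, adjusted p = 0.226, and -0.01 with library size alone). Myc, the driver of growth, was at 163 and 172 CPM and then at 140 and 113 CPM (log2 -0.41, adjusted p = 0.13). Without WT 48 h replicate 1 the log2 fold changes of Cd69, Il2ra and Myc were -0.41, 0.49 and -0.56. Without replicate 2 they were -0.14, 0.21 and -0.25. There were 6 rises without either 48 h WT replicate and 1 without either 24 h one.

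The 3 NR4A receptors, orphan nuclear receptors of which Nr4a1 and Nr4a2 are those floxed in the dKO mice, did not move as one. Nr4a1 (chr15:101254269-101274795) stood at 525 and 275 CPM at 24 h and at 879 and 777 CPM at 48 h. The 2 times did not overlap, although the 24 h replicates differed widely (log2 1.05, SE 0.267, adjusted p = 0.0322). The call was lost without WT 24 h replicate 2 (log2 0.64, adjusted p = 0.079) and without each dKO library (up to 0.081). Nr4a2 (chr2:57106830-57124003) fell from 59.7 and 49.1 CPM to 24.6 and 33.1 CPM (log2 -0.90, SE 0.176, adjusted p = 0.00889), a call lost without WT 24 h replicate 1 (adjusted p = 0.087). Nr4a3 was at 129 and 136 CPM and then at 55.2 and 121 CPM (log2 -0.57, adjusted p = 0.263). Its 48 h replicates lay far apart: the log2 fold change was -0.11 without WT 48 h replicate 1 and -1.26 without replicate 2.

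Inhibitors that damp signalling changed in both directions. Of 33 tested feedback genes 1 rose and 6 fell (background 7.87% and 3.5%), with a median of -0.36. Spry1 (chr3:37639947-37644598), a Sprouty inhibitor of the ERK cascade, fell from 24.5 and 28.1 CPM to 5.97 and 4.89 CPM (log2 -2.31, SE 0.199, adjusted p = 0.000704). Rgs16, which switches off G protein signals of chemokine receptors, fell from 96.5 and 120 CPM to 49.6 and 54.1 CPM (log2 -1.05, SE 0.157). Socs2 (chr10:95385362-95417180), an inhibitor induced by cytokines that signal through STAT5, rose from 20.5 and 23.3 CPM to 105 and 72.3 CPM (log2 2.01, SE 0.201, adjusted p = 0.000988). These 3 calls held, and the times did not overlap in any of them. The RNA decay factor gene Zfp36l1 fell by 0.72 on the log2 scale, and lost its call without WT 24 h replicate 1 (adjusted p = 0.1). Fewer fell without WT 24 h replicate 1 or 2 (2 and 3), and more without WT 48 h replicate 1 or 2 (13 and 15) or with library size alone (18).

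Chains of the TCR complex and its coreceptor tended to lie lower at 48 h. Of 12 tested, 2 fell and 0 rose (background 3.5% and 7.87%), and the median was -0.26. In 9 both 48 h libraries lay below both 24 h libraries, against 24.4% of all tested genes. Zap70, the kinase that the receptor recruits, was at 93.7 and 110 CPM and then at 63.1 and 58.8 CPM (log2 -0.74, adjusted p = 0.0152). Cd3e was at 167 and 169 CPM and then at 118 and 99.7 CPM (log2 -0.63, adjusted p = 0.0191). Cd8a and Cd8b1, the coreceptor chains, were not called at -0.55 and -0.53 (adjusted p = 0.0826 and 0.082). Without WT 24 h replicate 2 none of these falls was called (Zap70 adjusted p = 0.13, Cd3e 0.096), and Cd3e also lost its call without WT 24 h replicate 1 and each dKO library (0.058 to 0.079). Without WT 48 h replicate 1 there were 6 falls, and with library size alone 11.

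**Figure D3:**
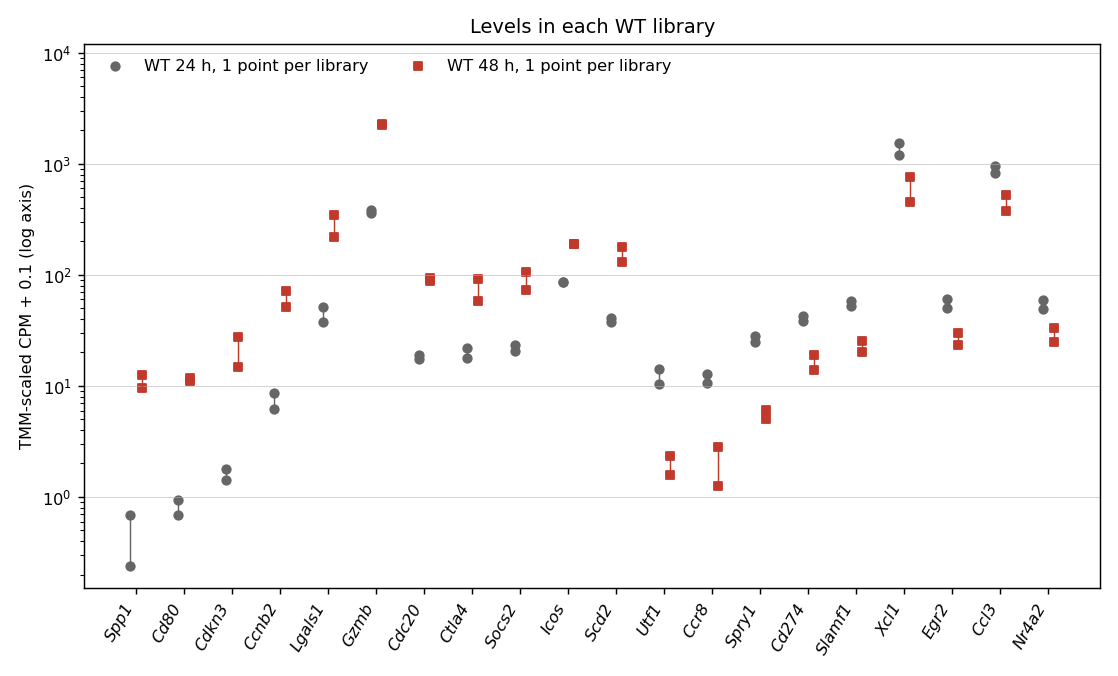
Levels of 20 genes in each WT library (TMM-scaled CPM plus 0.1, log axis); grey circles are the 2 libraries at 24 h, red squares the 2 at 48 h, and a line joins the replicates. In each gene shown the 2 times do not overlap; Gzmb goes from 362 and 387 CPM to 2227 and 2293 CPM, and Spry1 from 24.5 and 28.1 CPM to 5.97 and 4.89 CPM.

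Chemokines that T cells secrete after TCR engagement were lower on the second day. Of 7 tested, 5 fell and 1 rose (background 3.5% and 7.87%), with a median of -1.18. Ccl1, the ligand of CCR8, fell from 12.8 and 12.9 CPM to 4.6 and 4.73 CPM (log2 -1.45, SE 0.175, adjusted p = 0.00221). Ccl3, which attracts cells through CCR1, fell from 959 and 831 CPM to 521 and 376 CPM (log2 -1.0, SE 0.203, adjusted p = 0.0113). Ccl9 fell by 1.44 on the log2 scale. Xcl1, which attracts cross-presenting dendritic cells, and Ccl4 were named after their values were seen. Xcl1 fell from 1539 and 1200 CPM to 762 and 452 CPM and Ccl4 from 934 and 807 CPM to 546 and 370 CPM. The fall of Ccl1, Ccl3 and Ccl9 held, and 3 of the 5 were called without WT 24 h replicate 1. The rise was that of Ccl5, at 62.5 and 45.0 CPM and then at 136 and 157 CPM (log2 1.44, SE 0.177), a gene in fixed proportion.

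Of 9 tested cytokines 2 rose and 1 fell (background 7.87% and 3.5%), with a median of -0.13. At 24 h, Spp1 (chr5:104435118-104441050), which encodes the secreted protein osteopontin, stood at 0.14 and 0.59 CPM. These levels lie near the 3 counts that a count of 0 allows (0.435 and 0.515 CPM there). At 48 h Spp1 stood at 12.4 and 9.51 CPM. Its log2 fold change of 4.85 (SE 0.465, adjusted p = 0.000861) ranged from 4.16 to 6.11 without single libraries and held. Il2 itself was at 6.73 and 6.3 CPM and then at 4.26 and 1.73 CPM (log2 -1.34, adjusted p = 0.0374). That call was lost without each library but WT 48 h replicate 1 (adjusted p up to 0.19). Lif, a cytokine of the IL6 family, was at 14.7 and 15.8 CPM and then at 20.5 and 26.2 CPM (log2 0.63, adjusted p = 0.0485), and was likewise lost without each library but WT 48 h replicate 1 (up to 0.24). Without WT 48 h replicate 1 there were 2 falls.

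Receptor chains for cytokines had more rises than falls, as did all tested genes. Of 22 tested, 8 rose and 3 fell (background 7.87% and 3.5%), with a median of 0.29 (-0.07 with library size alone). Of the 8 rises 1 held. Il7r, the IL7 receptor chain that marks naive and memory cells, rose from 8.97 and 9.82 CPM to 24.2 and 29.2 CPM (log2 1.51, SE 0.183, adjusted p = 0.00221) and held. Il18r1, an IL18 receptor chain, rose by 1.11, and the IL10 receptor genes Il10rb and Il10ra by 0.93 and 1.13. Each lost its call without WT 24 h replicate 2 (adjusted p = 0.0574, 0.0828 and 0.139), and Il10rb also without replicate 1 (0.0719). The 3 falls, named after their values were seen, were those of the common gamma chain Il2rg (-0.68), the IL6 family chain Il6st (-1.06) and Il15ra (-0.73). There were 3 rises and 1 fall without WT 24 h replicate 1, 1 rise and 0 falls without replicate 2 and 5 rises without each dKO library. Without WT 48 h replicate 2 there were 5 falls, and without either dKO 48 h library 1.

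Homing and adhesion receptors changed one by one. Of 19 tested, 3 rose and 4 fell (background 7.87% and 3.5%), with a median of -0.12. Ccr8 (chr9:120092114-120094906), a receptor for CCL1, fell from 10.5 and 12.6 CPM to 2.73 and 1.16 CPM (log2 -2.80, SE 0.359, adjusted p = 0.00253). Itgae, the CD103 integrin chain of tissue-resident cells, fell from 17.3 and 13.2 CPM to 3.24 and 5.15 CPM (log2 -1.77, SE 0.27). Cxcr6, a receptor of effector and resident cells, fell by 1.42 on the log2 scale, and lost its call without WT 24 h replicate 2 (adjusted p = 0.074). The falls of Ccr8 and Itgae held. Ccr4 and Itgb1, named after their values were seen, rose by 1.09 and 0.57, and neither held. Of the rises in the list, 1 was left without WT 24 h replicate 1 or 2 or either dKO 48 h library. There were 2 falls without WT 24 h replicate 2.

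Genes of naive, stem-like and memory cells were mixed. Of 21 tested, 2 rose and 4 fell (background 7.87% and 3.5%), with a median of -0.29. The lymph node receptor Ccr7 was at 121 and 129 CPM and then at 75 and 83.3 CPM (log2 -0.65, adjusted p = 0.0139), a call lost without WT 24 h replicate 1 or 2 (adjusted p = 0.051 and 0.092). Bach2, a repressor that preserves memory precursors, was at 138 and 148 CPM and then at 55.2 and 93.3 CPM (log2 -0.93, adjusted p = 0.0248). Klf2 and Klf3, quiescence factors named after their values were seen, were at -0.82 and -0.62. None of these 4 falls held: 0 falls were called without either WT 24 h replicate, 1 or 2 without each dKO library and 7 without WT 48 h replicate 1. Beside Il7r the rise was that of Eomes, a T-box factor of memory cells, from 11.5 and 7.33 CPM to 17.1 and 22.9 CPM (log2 1.10, adjusted p = 0.0209, 0.21 without WT 24 h replicate 2, and lost without either dKO 48 h library).

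Tcf7, which encodes TCF1, a factor that marks stem-like cells, was not called. It was at 86.0 and 84.1 CPM at 24 h and at 63.2 and 64.2 CPM at 48 h, with no overlap between the times (log2 -0.42, SE 0.136, adjusted p = 0.082). Its log2 fold change was -0.39 without WT 48 h replicate 1 and -0.43 without replicate 2.

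Inhibitory receptors and factors of exhaustion divided. Of 15 tested, 3 rose and 4 fell (background 7.87% and 3.5%), with a median of -0.01. Ctla4 (chr1:60887000-60915832), which competes with CD28 for its ligands, rose from 17.7 and 21.69 CPM to 91.5 and 58.1 CPM (log2 1.92, SE 0.22, adjusted p = 0.00221). Cd160, a receptor for HVEM, fell from 62.3 and 58.5 CPM to 28.0 and 26.3 CPM (log2 -1.16, SE 0.135). Cd274, which encodes PD-L1, the ligand of PD-1, fell from 42.4 and 37.96 CPM to 13.8 and 18.9 CPM (log2 -1.27, SE 0.189), and Vsir, the checkpoint protein VISTA, by 1.06. These 4 calls held. Lag3 fell by 0.65 and Entpd1, the ectonucleotidase CD39, rose by 2.00 at low levels (0.42 and 0.29 CPM, then 1.19 and 1.63 CPM), and both were named after their values were seen. Ikzf2, which encodes Helios, rose by 0.88 and lost its call without WT 24 h replicate 2 (adjusted p = 0.17). There were 1 and 6 rises without WT 24 h replicate 2 and WT 48 h replicate 1.

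Pdcd1 and Havcr2, receptors used to mark exhaustion, were not called, and neither was Tox. Pdcd1, which encodes PD-1, was at 84.1 and 90.7 CPM and then at 105 and 119 CPM (log2 0.35, adjusted p = 0.158, and -0.01 with library size alone). Its log2 fold change was 0.46 without WT 48 h replicate 1 and 0.26 without replicate 2. Havcr2, which encodes TIM-3, was at 1.4 and 1.47 CPM and then at 1.53 and 3.26 CPM (log2 0.87, adjusted p = 0.26), and its 48 h replicates differed by more than the times did in replicate 1. Tox, a regulator of exhausted cells, was at 17.8 and 17.9 CPM and then at 15.2 and 15.2 CPM (log2 -0.23, adjusted p = 0.409).

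Costimulatory receptors and their ligands held both large rises and falls. Of 14 tested, 3 rose and 5 fell (background 7.87% and 3.5%), with a median of -0.25. Cd80 (chr16:38455561-38496335), a ligand of CD28 and CTLA4 that activated T cells can make, rose from 0.84 and 0.59 CPM to 10.9 and 11.6 CPM (log2 3.95, SE 0.292, adjusted p = 0.000523). Icos (chr1:60977927-61000320), a receptor of the CD28 family, rose from 86.1 and 85.4 CPM to 188 and 188 CPM (log2 1.13, SE 0.133). Slamf1, a self-ligand of lymphocytes, fell from 52.0 and 57.5 CPM to 19.9 and 25.3 CPM (log2 -1.26, SE 0.175), and Tnfsf14, the TNF family ligand LIGHT, by 1.39. Cd226, Crtam and Tnfrsf9, named after their values were seen, fell by 0.82, 0.87 and 0.61. Of the 3 rises 2 held, those of Cd80 and Icos, and 4 of the 5 falls held, among them Slamf1 and Tnfsf14. The remaining rise was that of Tnfrsf4. There were 5 rises without WT 48 h replicate 2.

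Enzymes of lipid synthesis included Scd1 and Scd2, the single genes with the largest rises among the metabolic lists, although the hypoxia list had a higher median (0.50). Of 32 genes of cholesterol and fatty acid synthesis 5 rose and 0 fell (background 7.87% and 3.5%). Of these 32, 28 had a positive sign, and the median was 0.39 (0.03 with library size alone). Scd2 (chr19:44293674-44306864), a desaturase that makes monounsaturated fatty acids, rose from 37.7 and 41.2 CPM to 130 and 178 CPM (log2 1.97, SE 0.178, adjusted p = 0.000744) and held. Its relative Scd1 rose from 0.70 and 0.29 CPM to 4.6 and 3.36 CPM (log2 2.90, adjusted p = 0.0033, and 0.057 without WT 24 h replicate 2). Acat2, an enzyme of acetyl-CoA chemistry, and Lss, which closes the rings of the sterol, rose by 0.77 and 0.79, and neither was called without either WT 24 h replicate (adjusted p = 0.092 to 0.15). Elovl6, named after its values were seen, rose by 0.62. There were 2 and 1 rises without WT 24 h replicate 1 or 2, and 15 and 11 without WT 48 h replicate 1 or 2.

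Glycolysis and the response to low oxygen showed single rises. Of 23 glycolysis genes 5 rose and 0 fell, with a median of 0.25 (-0.10 with library size alone). Of 15 hypoxia genes 4 rose and 0 fell, with a median of 0.50. The background was 7.87% and 3.5%. Slc16a3, the lactate exporter MCT4, rose from 11.8 and 16.7 CPM to 43.0 and 35.3 CPM (log2 1.45, SE 0.208, adjusted p = 0.00258). Eno1, an enolase, rose from 1047 and 955 CPM to 1957 and 1992 CPM (log2 0.98, SE 0.182), and Eno3, a gene in fixed proportion, by 0.84. Ddit4, an inhibitor of mTORC1 that stress and low oxygen induce, rose from 18.1 and 17.9 CPM to 52.7 and 37.3 CPM (log2 1.31, SE 0.193). These 4 calls held.

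The other rises of those lists were weaker. Pfkfb4 rose by 1.40 (adjusted p = 0.044) and lost its call without WT 24 h replicate 2 (0.29) and each dKO library, and Pfkfb3, named after its values were seen, was at 0.71. Bnip3, a mitophagy receptor, rose by 1.53 and the oxygen sensor Egln3 by 0.99, and both lost the call without either WT 24 h replicate (adjusted p = 0.057 to 0.13). P4ha1, a collagen hydroxylase, was at 0.50 and lost its call without either WT 24 h replicate or any 1 dKO library (adjusted p = 0.092 to 0.20). There were 9 glycolysis rises without WT 48 h replicate 1 and 3 without WT 24 h replicate 2 or each dKO library, and 1 hypoxia rise without either WT 24 h replicate. Of 16 nutrient transporters, Slc16a3 alone rose (background 7.87%), and their median was 0.02 (-0.34 with library size alone). There were 6 without WT 48 h replicate 1.

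Genes of protein synthesis stayed near the median of all genes. The background for the lists of this paragraph was 7.87% higher and 3.5% lower. Of 79 cytosolic ribosomal protein genes 0 were called in edgeR (1 at an unadjusted p under 0.05, and 0 in DESeq2), with log2 fold changes from -0.56 to 0.63 and a median of 0.03 (-0.33 with library size alone). The 48 h replicates pulled them apart: 27 rose without WT 48 h replicate 2 and 26 fell without replicate 1. Of 77 genes of oxidative phosphorylation 1 rose, Cox7b, a cytochrome oxidase subunit in fixed proportion (log2 1.42), and the median was 0.17 (-0.19 with library size alone). There 38 rose without WT 48 h replicate 2 and 14 fell without replicate 1. Of 78 mitochondrial ribosomal protein genes Mrpl46 and Mrpl27 rose (1.49 and 1.43), both in fixed proportion, and Mrpl2 and Mrpl17 fell (-0.52 and -0.61). The calls of both falls were lost without each library but a WT 48 h replicate, 15 rose without WT 48 h replicate 2 and 30 fell without replicate 1.

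Of 40 ribosome biogenesis genes 1 rose, Dkc1, the pseudouridine synthase dyskerin, from 826 and 491 CPM to 1699 and 1255 CPM (log2 1.17, adjusted p = 0.0198, and 0.11 without WT 24 h replicate 2). The median of that list was -0.15, and 8 and 7 of its genes fell without WT 48 h replicate 1 or 2. Of 20 aminoacyl tRNA synthetases and 42 proteasome genes 0 were called in edgeR and in DESeq2, while 1 and 4 had an unadjusted p under 0.05. Their medians were -0.12 and -0.07. Over all tested genes 7.87% rose and 3.5% fell, which is the background for each list here. In the proteasome list 15 fell without WT 48 h replicate 1. Of 19 genes of the amino acid response and serine synthesis, Ddit4 and Sesn2 rose, and the median was -0.09. Of 10 genes of the MYC network 1 fell, Mxd4, a MYC antagonist, at low levels (log2 -1.08, adjusted p = 0.0483), and that call was lost without each library but WT 48 h replicate 1. Of 35 genes of heat shock and unfolded proteins, Pdia4, a gene in fixed proportion, rose by 1.43, and Dnajb9, a chaperone of the endoplasmic reticulum, fell by 1.22 on the log2 scale. The fall of Dnajb9 was lost without WT 24 h replicate 1 or 2 (adjusted p = 0.134 and 0.055).

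**Figure D4:**
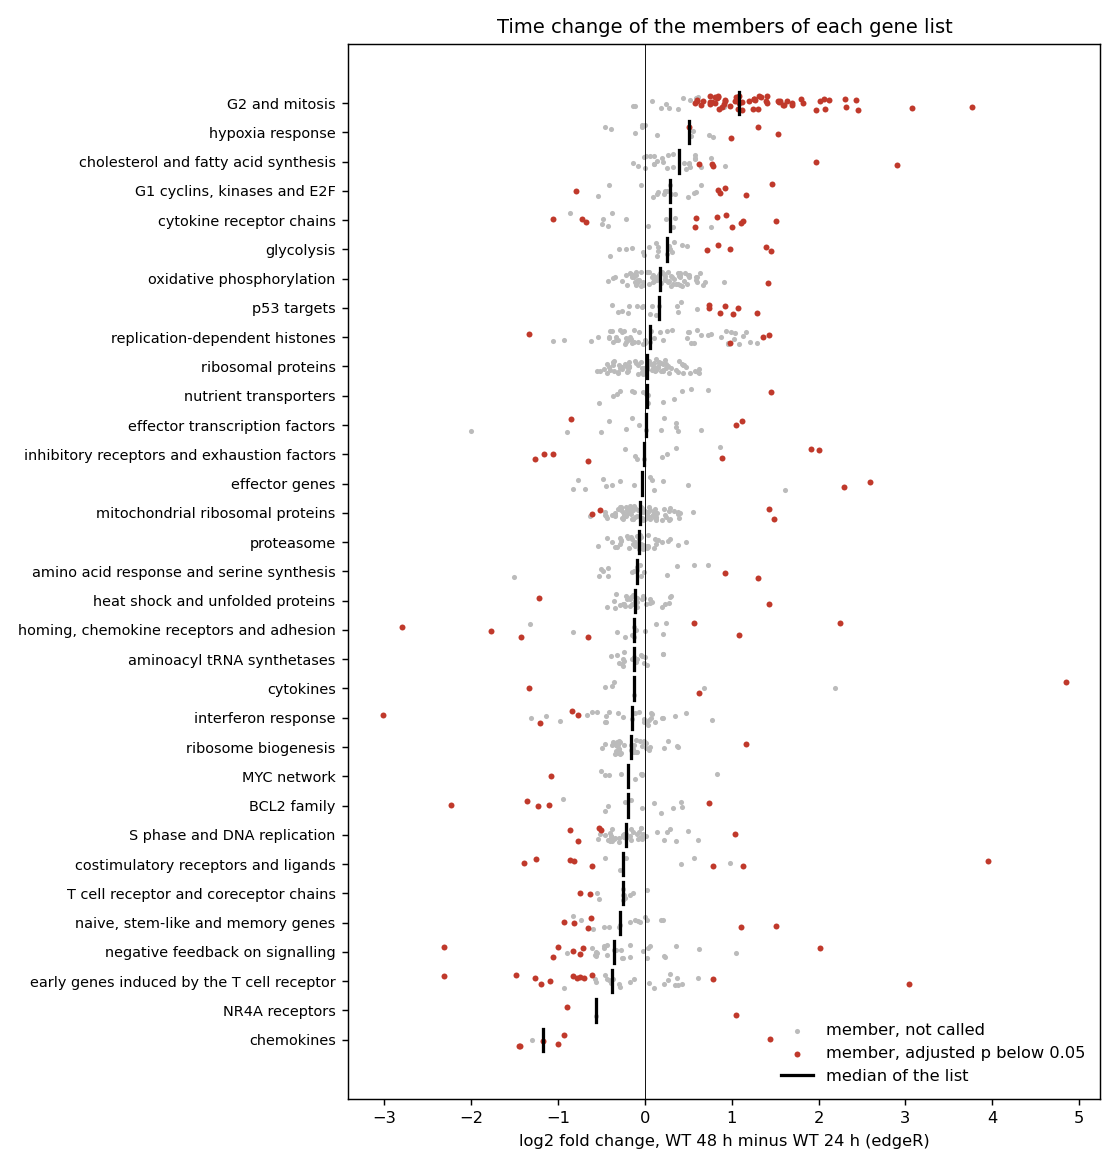
Log2 fold changes at 48 h against 24 h in WT (horizontal axis) for the tested members of 33 gene lists; each point is 1 gene and each bar the median of its list. The G2 and mitosis list has the highest median, 1.08, and the chemokine list the lowest, -1.18; the medians of ribosomal protein, proteasome and tRNA synthetase genes lie between -0.12 and 0.03.

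The BCL2 family holds genes that protect cells and genes that kill them. Of 16 tested, 4 fell and 1 rose (background 3.5% and 7.87%), with a median of -0.20. Bcl2a1b, of the A1 group that protects activated lymphocytes, fell from 104.6 and 102.1 CPM to 52.3 and 30.0 CPM (log2 -1.35, SE 0.233, adjusted p = 0.0044). Its close copies Bcl2a1a and Bcl2a1d were at -1.23 and -1.10, but these near-identical genes share reads, so their separate counts are uncertain. Bik, which promotes cell death, fell from 5.61 and 5.28 CPM to 1.71 and 0.893 CPM (log2 -2.23, SE 0.361). The falls of Bcl2a1b and Bik held, and 2 falls were called without either WT 24 h replicate. The rise was that of Pmaip1, and 0 rose without either WT 24 h replicate or each dKO library.

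Among 33 tested interferon-induced genes 4 fell, against 3.5% of all tested genes, and in 14 both 48 h libraries lay below both 24 h libraries, against 24.4%. None rose (0 had an unadjusted p under 0.05 with a positive sign, and 0 rose in DESeq2), with a median of -0.14. Irgm1, a GTPase against intracellular pathogens, fell from 91.4 and 82.5 CPM to 36.5 and 38.5 CPM (log2 -1.21, SE 0.147, adjusted p = 0.00226) and held. Gbp2 and Ifi47, further GTPases of this response, were at -0.77 and -0.83. Ifit3, an antiviral gene, was at 7.15 and 3.96 CPM and then at 0 and 0.946 CPM, and lost its call without WT 24 h replicate 1 (adjusted p = 0.113). There was 1 fall without WT 24 h replicate 1, 10 without either WT 48 h replicate and 14 with library size alone.

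Some of the largest held changes were in genes outside these lists. Lrrc32, which encodes GARP, a cell surface anchor of latent TGF-beta, rose from 0.841 and 0.44 CPM to 6.65 and 8.72 CPM (log2 3.58, SE 0.358, adjusted p = 0.000988). Igfbp7, a secreted binding protein, rose from 0.561 and 0.293 CPM to 5.8 and 4.52 CPM (log2 3.51, SE 0.412). Lgals1, which encodes the lectin galectin 1, rose from 51.3 and 37.4 CPM to 345 and 221 CPM (log2 2.67, SE 0.252). In each of the 3 genes the lower 48 h library was several times above the higher 24 h library.

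Utf1, Dtx1 and Pou2af1, with falls of similar size, stood low at 48 h, as Lrrc32 and Igfbp7 did at 24 h. Utf1, a chromatin factor known from stem cells, fell from 10.2 and 14.2 CPM to 2.22 and 1.47 CPM (log2 -2.83, SE 0.27, adjusted p = 0.000861). Dtx1, a target and regulator of Notch signals, fell from 7.29 and 7.33 CPM to 0.341 and 1.31 CPM (log2 -2.82, SE 0.382). Pou2af1, a coactivator of octamer factors, fell from 23.4 and 28.3 CPM to 4.94 and 6.78 CPM (log2 -2.09, SE 0.227). The times did not overlap in any of these, and all 3 falls held. Ncs1, a calcium sensor, and Ypel3 also fell and held, by 1.94 and 1.90 on the log2 scale, as did Bdh2, Pgpep1l, Ifi214, Lcn4 and Ak7, with log2 fold changes of -2.60, -2.47, -2.09, -2.00 and -1.98.

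Several defining markers of other cells were at 0 or near it. Cd8a had 3829 to 9685 counts in each WT library, while Cd4 had 0 to 2. Lyz2 of myeloid cells, Ncr1 of NK cells and the globin genes Hbb-bs and Hba-a1 had 0 counts in each WT library. Others were counted in each WT library: Hba-a2 at 3 to 23 counts, Cd79b of the B cell list at 19 to 86 and Ctss of the myeloid list at 191 to 495. Sums over marker lists are CPM without the TMM factors, unlike the levels of single genes. In WT those factors were 1.033 and 1.172 at 24 h and 0.8359 and 0.8775 at 48 h. Scaling by them would lower each 24 h sum and raise each 48 h sum. The 9 B cell markers summed to 8.69 and 9.61 CPM at 24 h and to 6.7 and 6.41 CPM at 48 h, and 0 of the 2 that were tested were called. The 15 myeloid markers summed to 42.2 and 45.5 CPM and then to 42.9 and 38.3 CPM, and 1 of 4 tested rose, Cd14, at 4.07 and 3.37 CPM and then at 12.3 and 9.98 CPM. The 9 markers of NK and gamma delta T cells summed to 161 and 187 CPM and then to 197 and 141 CPM. Of 4 tested, Klrk1, which encodes NKG2D and is also made by activated CD8+ T cells, rose from 17.4 and 16.7 CPM to 95.3 and 60.5 CPM and held. The rise of Eomes did not hold, and Klrd1, which encodes the NK receptor chain CD94, went from 109 and 108 CPM to 83.4 and 50.8 CPM and was not called (log2 -0.71, adjusted p = 0.0606). The 7 markers of CD4 and regulatory T cells summed to 136 and 146 CPM and then to 215 and 174 CPM. Of 4 tested 2 rose, Ctla4 and Ikzf2, which activated CD8+ T cells also make, with a median of 0.65 over the 4. Foxp3, of regulatory T cells, had 17 to 55 counts in each WT library (3.51 and 3.37 CPM, then 2.9 and 2.89 CPM). In the list of red cells, platelets and stroma Pf4 rose and Epcam fell, and neither call held. Both were lost without either WT 24 h replicate, and also without either dKO 48 h library. Over all tested genes 7.87% rose and 3.5% fell. The part of other cells in the results was not tested.

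The same interval could be followed in the 4 libraries labelled dKO. In these, 224 genes were higher at 48 h (1.76% of those tested) and 239 lower (1.88%). Of the 1449 WT calls 1331 had the same sign there. The calls of both courses shared 259 genes, 17.9% of the WT calls and 55.9% of the dKO calls, all in the same direction. The libraries labelled dKO still held RNA counted to the targeted genes: Nr4a1 stood at 531.9 and 505.2 CPM at 24 h and at 633.2 and 668 CPM at 48 h, and Nr4a2 at 142.2 and 135.6 CPM and then at 75.3 and 77.1 CPM. Counts over a whole gene do not show whether floxed exons were lost, so these levels check neither label. Xist ranged from 0.655 to 1.67 CPM over the dKO libraries and from 386 to 816 CPM over the WT libraries, so this gene of the inactive X chromosome also separates the 2 groups, and genotype and sex cannot be told apart.

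Gzmb, Spp1, Ccnb2 and Spry1, set beside their dKO values after these were seen, changed in the same direction in both courses. Gzmb stood at 648.7 and 692.4 CPM and then at 3163 and 3314 CPM in the libraries labelled dKO (log2 2.27, against 2.59 in WT). Spp1 rose by 5.01 there, against 4.85, Ccnb2 by 2.63, against 3.08, and Spry1 was at -2.14, against -2.31. In the G2 and mitosis list 29 of 71 rose in dKO, with a median of 0.59 against 1.08 in WT, and 26 of the 71 had an unadjusted p under 0.05 for the difference between the courses. The 6 tested markers of muscle and testis had a median of 0.71 in dKO, against 1.53 in WT. A test of the difference between the courses called 0 genes in edgeR, with 1574 at an unadjusted p under 0.05 and a smallest adjusted p of 0.369. DESeq2 also called 0, with 914 at an unadjusted p under 0.05. Without WT 48 h replicate 1, 3460 genes were called, without replicate 2 21, and without WT 24 h replicate 1 141.

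The smallest p-values of that difference were in genes that moved unlike each other. Cdkn1a rose in WT and stood at 76.95 and 74.38 CPM and then at 70.4 and 64.2 CPM in the libraries labelled dKO (difference 1.04, adjusted p = 0.369). Ccl1 stood at 156.5 and 146.5 CPM there and then at 26 and 22 CPM (log2 -2.66, against -1.45 in WT). Pdcd1 stood at 114.6 and 106.6 CPM and then at 75.6 and 67.8 CPM (log2 -0.63, against 0.35 in WT). Lgi1, a secreted neuronal protein, had log2 fold changes of 2.57 in WT and -1.92 in dKO at levels under 5 CPM. None of these differences passed the adjusted threshold.

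**Figure D5:**
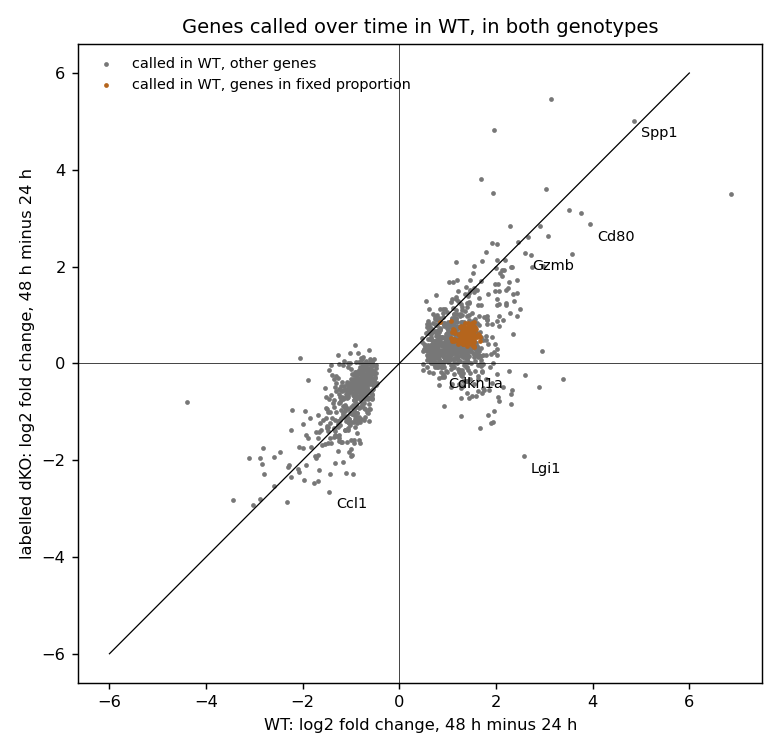
Log2 fold change at 48 h against 24 h in WT (horizontal axis) and in the libraries labelled dKO (vertical axis) for the 1449 genes called in WT; each point is 1 gene and the line marks equal changes. Of these genes 1331 have the same sign in both; Cdkn1a and Lgi1 lie on the other side of 0 in dKO.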

How the data were processed

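RNA of 8 samples was sequenced. Per the submitters' processing notes, the tools were cutadapt 1.18 and Bowtie2 2.2.5 and the build mm10. How reads were counted, on which annotation and strand, and whether molecular tags were used was not given in the sources used here. Raw counts, as whole numbers for each symbol, make up the file that the authors deposited. A row with no gene name, 50% of each column, was left out.

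Counts were tested in R 4.3.3 with edgeR 4.0.16 (filterByExpr with a minimum count of 10, TMM scaling, quasi-likelihood test, Benjamini-Hochberg adjustment) on all 8 libraries, which share 1 estimate of the spread. Of 24976 symbols, 12742 were tested. The code was tested on simulated data. Alternatives were scaling by library size, other filters, DESeq2 1.42.0, a replicate block, the WT libraries alone, each library left out, and the genes in fixed proportion left out.

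The comparison, its members, the genes in fixed proportion and the gene lists were chosen with earlier results of these data known. The genes named are 16 fixed ones, the strongest 15 rises and 15 falls by size among calls with no overlap of the times and a mean of 20 or more counts, and up to 4 of each list with the smallest p. Marker genes and the genes that define the fixed proportion are given as checks, and others are marked as named after their values were seen. Values of some genes that this rule names are not reported here. Positions are from GENCODE M21 (GRCm38).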

Additional observations from a re-analysis of the deposited data

How the results depend on the processing

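Genes called higher at 48 h numbered 1003. They were 602 without the genes in fixed proportion, 27 in the 4 WT libraries alone, and 494 to 2275 with 1 library left out. Genes called lower numbered 446, and were 2641 with library size alone, 4 in the 4 WT libraries alone, 254 with DESeq2, and 101 to 1939 with 1 library left out. Genes whose times did not overlap were 1253 higher and 6005 lower with library size alone. The difference between the WT and dKO courses had 0 calls, 170 with no filter on low counts, and 0 to 3460 with 1 library left out. The causes were not tested. All 1449 calls kept their sign in each of these settings in which the gene was tested, and the 31 calls of the WT libraries alone were all among them.

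Deviations of same-numbered libraries had r = -0.0082 between WT 24 h and WT 48 h, and -0.076 to 0.17 over all 6 pairs of groups, and the labels tie the numbers to nothing. A replicate block gave 983 higher and 386 lower and shared 1315 calls.

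A few uncalled genes changed sign. With library size alone the log2 fold change of Il2ra was -0.013, that of Pdcd1 -0.0092 and that of Smc4 -0.17. With 1 library left out, Ifng ran from -0.38 to 0.10 and Pttg1 from -0.25 to 0.046.

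Having 2 libraries a group, and 48 h replicates that differ in depth and by transcript length, limits the precision of every fold change.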
